A study of Mus musculus with 24 samples.

Results

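The TGF-beta, activin and BMP signaling genes Tgfb1, Tgfb2, Tgfb3, Inhba, Bmp4, Tgfbr1, Tgfbr2, Smad3 and Smad7 were followed in differentiating adipocytes. These 9 genes were picked by symbol from the 26995 symbols in the tables of total and labelled reads. For each, the 3′UTR entry with the highest mean total count was used. The cells were 3T3-L1, an established mouse pre-adipocyte line that turns into fat cells when given hormones. They were kept in DMSO, the solvent control, or in 0.5 μM ML-792, and were collected at days −2, 1, 3 and 7 of differentiation. Day −2 precedes induction. Before induction, and so at day −2, the medium held bovine calf serum without these hormones. From induction to day 3 the cultures of days 1, 3 and 7 received dexamethasone, isobutylmethylxanthine, insulin and fetal bovine serum. From then on they received insulin and fetal bovine serum. Against day −2, effects of time, hormones and serum cannot be told apart. All cultures received 100 μM 4-thiouridine for 45 min, so that new RNA carries T to C changes when it is sequenced. The 8 conditions had 3 replicates each, A, B and C, and so there were 24 libraries. The cells of all libraries are of 1 line, so the replicates are cultures and not animals. The comparisons ask how these genes change over differentiation and what blocking sumoylation does to them at each day.

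TGF-beta ligands and activins bind pairs of receptor kinases that phosphorylate SMAD2 and SMAD3, while BMPs act through SMAD1, SMAD5 and SMAD9. TGF-beta is known as an inhibitor of fat cell differentiation in pre-adipocytes, and BMP4 as a factor that commits precursors to the fat lineage. Sumoylation is the attachment of the small protein SUMO to other proteins, and ML-792 blocks SAE1/2, the enzyme that activates SUMO for all of these attachments.

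Libraries held 13554718 to 27013352 total reads and 115709 to 820046 labelled reads, which are reads with at least 1 T to C change. Fat cell markers fitted the label: the summed normalized counts of 6 adipocyte genes went from 22160 to 23675 in the DMSO libraries of day −2 to 567820 to 626508 at day 7. Those of 6 pre-adipocyte and fibroblast genes went from 159642 to 205736 down to 18635 to 24911. Of 5 macrophage and leukocyte markers Ptprc had 0 reads in all 24 libraries and Adgre1 0 in those of DMSO, while the summed level of the 5 was 41.4 to 97.5 at day −2 and 62.3 to 153 at day 3, when Cd68 had 108 on average. The sum of 4 muscle markers went from 39.6 to 92.3 at day −2 up to 312 to 544 at day 7, most of it Des, with Myod1 and Myog at 0 in DMSO. That of 4 endothelial markers was at most 17.7 in DMSO. The part of these cell types in the results was not tested. These are bulk libraries, so a fall of a transcript per cell and a smaller share of cells that express it cannot be told apart.

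All 9 entries lie in the 3′UTR of their RefSeq gene in mm10. Of the ligands, Tgfb1 lies at chr7:25704943-25705077, Tgfb2 at chr1:186622787-186625581, Tgfb3 at chr12:86056743-86057779, Inhba at chr13:16027130-16027723 and Bmp4 at chr14:46383525-46383858. The receptor entries are at chr4:47410778-47414924 for Tgfbr1 and chr9:116087695-116090377 for Tgfbr2, and Smad3 is at chr9:63646766-63650261. The entries of Smad7, on chromosome 18, and of Bmp4 overlap the antisense genes Gm41776 and Gm15217. Whether the counting used strand is not given in the sources used here, so reads of these antisense genes cannot be told apart from theirs. The numbers of reads differ widely between genes: over the 24 libraries Tgfbr2 had 31291 total reads and Bmp4 only 191.

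Over differentiation in DMSO, 4 of the 5 ligands fell. Counts are given as normalized counts, which are read counts per effective library size, scaled to the mean library. A change was called at an edgeR adjusted p under 0.01 for day 1, 3 or 7 against day −2. By this rule 7 of the 9 genes were called at 1 or more days, against 42.7% of all 26563 entries tested. Many genes have several entries, and with 1 entry per gene, as for the 9, the share was 51.5% of 13331. Of the 7 genes 6 were lower than at day −2 wherever they were called. The exception was Tgfbr2, which was higher. The median log2 fold change of the 9 genes was −1.05, −0.88 and −1.70 at days 1, 3 and 7, and that of all entries was 0.02, 0.03 and −0.04.

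Tgfb3, the third of the TGF-beta isoforms, had the steepest fall among the well counted ligands at day 1. Its 3 DMSO libraries held 1642, 1721 and 1625 normalized counts at day −2. They held 262, 354 and 342 at day 1, then 144, 120 and 145 at day 3 and 136, 97.8 and 177 at day 7. Every later library was far below every library of day −2. Against day −2 the log2 fold change at day 1 was −2.38 ± 0.21 (SE; adjusted p 1.2e-06), and that at day 3 was −3.61 ± 0.23 (adjusted p 6.96e-09). From day 1 to day 3 it fell further, by 1.23 on the log2 scale, and days 3 and 7 had about the same mean, 136 ± 14.2 and 137 ± 39.8 counts (SD, n = 3).

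Tgfb2, the second of the 3 TGF-beta isoforms, fell and then came partly back. The DMSO libraries held 555, 610 and 458 normalized counts at day −2 and 192, 214 and 122 at day 1. They held 329, 293 and 260 at day 3 and 318, 331 and 378 at day 7. Day 1 was lowest, with no overlap with any other day. For day 1 the log2 fold change was −1.62 ± 0.23 (adjusted p 8.65e-05), and for day 3 it came to −0.88 ± 0.22 (adjusted p 0.00453). Day 7 was higher than day 1 by 0.96 on the log2 scale (adjusted p 0.00287), and against day −2 it missed the threshold at −0.66 ± 0.22 (adjusted p 0.0233). Tgfb1, the isoform found in most tissues, was called at no day. Its DMSO libraries ranged from 109 to 235 normalized counts over all 4 days, with overlap between days, and its log2 fold changes lay between −0.29 and 0.15 (lowest adjusted p 0.442).

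Inhba encodes the subunit of activin A, which signals through the same SMADs as TGF-beta. The DMSO libraries held 590, 972 and 274 normalized counts at day −2 and 281, 316 and 292 at day 1. They held 354, 656 and 242 at day 3, but only 25.9, 14.6 and 17.1 at day 7. The first 3 days overlap and the last stands far below them. Day 7 was lower than day −2 by −4.99 ± 0.49 on the log2 scale (adjusted p 7.04e-07), and lower than day 3 by −4.44. Day 1 missed the threshold at −1.05 ± 0.39 (adjusted p 0.0687).

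Bmp4 was a low transcript that all but vanished. It had 32, 31 and 19 reads in the DMSO libraries of day −2 and 0 or 1 read in each of the other 9 DMSO libraries. With groups of at most 3 reads a library set to that floor, Bmp4 was at least 8.65-fold lower at day 1, at least 6.63-fold lower at day 3 and at least 7.01-fold lower at day 7 (adjusted p 0.00184, 0.000593 and 0.00115).

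**Figure D1:**
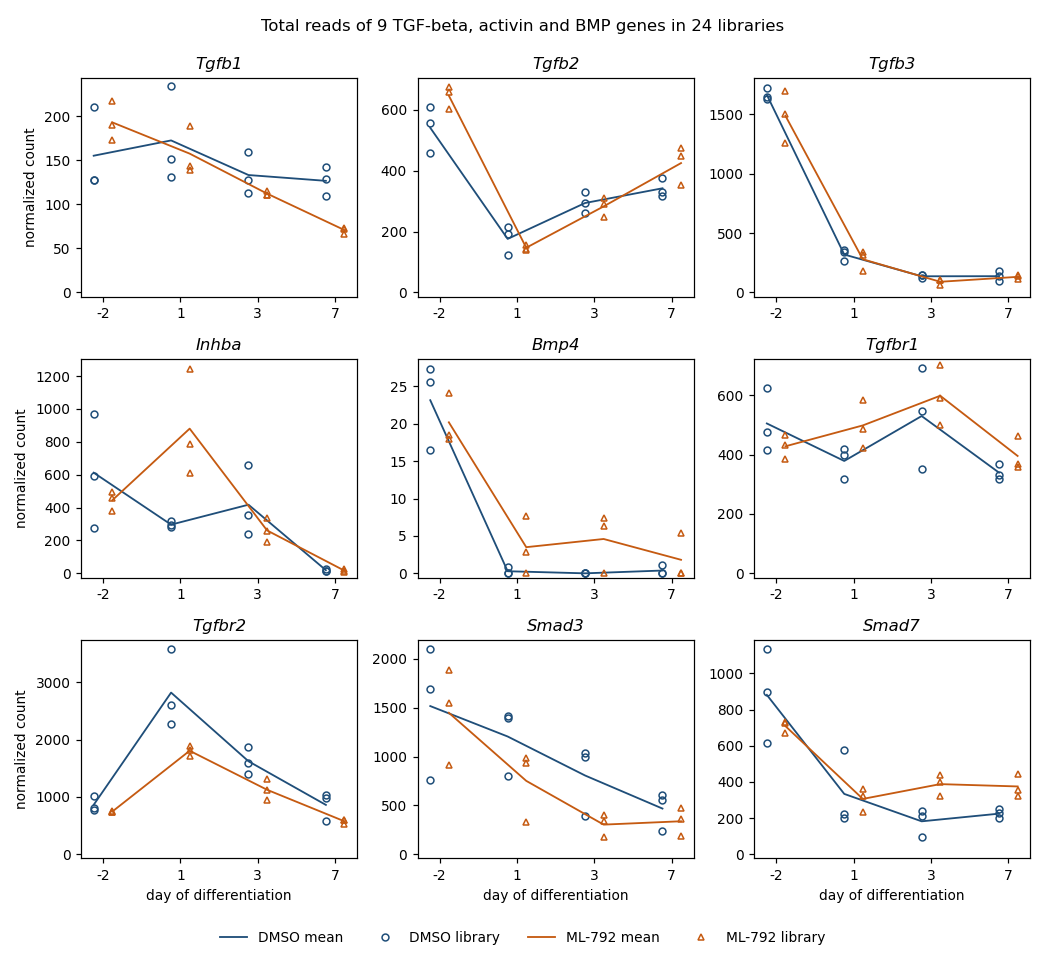
Normalized total counts (y axis, a linear scale of its own for each gene) of the 9 genes by day of differentiation (x axis), each point a library of DMSO (blue circles) or ML-792 (orange triangles) and lines through the means of 3. Tgfb3 falls from 1663 to 319 in DMSO between days −2 and 1, Tgfbr2 peaks at day 1, and the 3 Inhba libraries of ML-792 lie above those of DMSO at day 1.

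The receptors followed another course. Tgfbr2, the type II receptor that binds TGF-beta directly, was the one gene of the 9 to rise. In DMSO it held 763, 1017 and 805 normalized counts at day −2, and 2600, 3589 and 2273 at day 1. They then held 1406, 1863 and 1596 at day 3 and 972, 582 and 1027 at day 7. Days 1 and 3 lie above day −2 in all libraries, and day 7 overlaps it. Its log2 fold change reached 1.71 ± 0.24 by day 1 (adjusted p 8.08e-05) with 0.91 ± 0.23 left by day 3 (adjusted p 0.00496), and from day 1 to day 7 Tgfbr2 fell by 1.71 (adjusted p 3.01e-05). Tgfbr1, the type I receptor that the complex of ligand and TGFBR2 activates, was not called at any day. Its DMSO libraries held 476, 623 and 415 normalized counts at day −2 and 368, 319 and 331 at day 7, without overlap, and the other pairs of days overlapped. Its log2 fold changes against day −2 ranged from −0.57 to 0.07 (lowest adjusted p 0.0631).

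Both SMADs were lower in fat cells than before induction. Smad7, the inhibitory SMAD that blocks the type I receptor and that the pathway itself induces, held 895, 1134 and 615 normalized counts at day −2 in DMSO. It held 222, 576 and 202 at day 1, 213, 236 and 96.0 at day 3, and 226, 249 and 198 at day 7. Every library of days 1, 3 and 7 was below those of day −2. Replicate B was the highest of the 3 at all 4 days. Against day −2 Smad7 was lower by −2.27 ± 0.40 at day 3 and by −1.97 ± 0.39 at day 7 (log2; adjusted p 0.000271 and 0.000744), while at day 1 it missed the threshold (−1.40 ± 0.39, adjusted p 0.0153).

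Smad3, which carries TGF-beta and activin signals to DNA, declined over the course. The DMSO libraries held 1692, 759 and 2099 normalized counts at day −2, 1396, 806 and 1414 at day 1, 1032, 387 and 998 at day 3 and 605, 242 and 555 at day 7. Replicate B was the lowest of the 3 libraries on each day. Day 7 lay below days −2 and 1 in all libraries, and the other pairs of days overlapped. Only day 7 was called, at −1.70 ± 0.43 (adjusted p 0.00488), and day 3 was at −0.91 ± 0.42 (adjusted p 0.0983).

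These calls depend on the number of libraries. Without replicate A at all days 3 of the 9 genes were still called, namely Inhba at day 7, Smad7 at day 3 and Tgfb3 at all 3 days, and 21.4% of all entries were. Without replicate C there were 5 (26.2% of entries), the calls of Bmp4 and Smad3 being lost, and without replicate B there were the same 7 (46.1%). The calls of Bmp4 at day 1 and of Tgfb2 at day 3 were lost without any 1 of the letters.

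Labelled reads stand for RNA made in the last 45 min, called new RNA here, and 7 genes had enough of them to test. Since 1 T to C change was enough, reads with a sequencing error can be among them. All 24 libraries received 4-thiouridine, so the part of such reads was not measured. Tgfb1 had 10 labelled reads and Bmp4 7 in all 24 libraries together. The labelled counts were scaled by the total reads, so that a fall of all labelling shows as a fall: the labelled share of a DMSO library went from 3.17% ± 0.485 (SD, n = 3) at day −2 to 1.27% ± 0.0798 at day 1. With it the median entry changed by −1.23, −1.65 and −1.51 on the log2 scale at days 1, 3 and 7. In DMSO 4 of the 7 genes were called, against 42.6% of the 10589 entries tested, and all 4 were lower.

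New Smad7 RNA was the best counted and was lower at all 3 days. Its labelled counts were 260, 256 and 148 in the DMSO libraries at day −2 and 11.2, 58.4 and 20.2 at day 1. They were 16.5, 17.6 and 2.43 at day 3 and 30.3, 31.2 and 15.9 at day 7. No later library reached those of day −2, and the log2 fold changes were −2.88 ± 0.48, −4.16 ± 0.53 and −3.09 ± 0.49 (adjusted p 8.66e-06, 1.62e-08 and 1.8e-06). In total reads Smad7 had missed the threshold at day 1, but the difference between the labelled and total changes was not tested.

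New Inhba RNA was also called lower at day 1, where total Inhba was not. The labelled counts were 50.5, 69.6 and 29.6 at day −2, 1.87, 1.80 and 9.26 at day 1, and 0 in all 3 libraries at day 7. The log2 fold change at day 1 was −3.47 ± 0.69 (adjusted p 0.000145, or 0.0177 without replicate A), and day 7 was at least 15.1-fold lower than day −2. Labelled Tgfb3 went from 41.7, 35.2 and 37.4 to 0.936, 0 and 0 at day 1, at least 14.2-fold lower (adjusted p 6.7e-06). At days 3 and 7 Tgfb3 was at least 10.9-fold and at least 11.5-fold lower.

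Of the other 4 genes 1 was called. Labelled Tgfbr1 was called at day 7 alone, at least 7.33-fold lower (adjusted p 0.00235), and it lost the call without A or C and when scaled by labelled reads. Labelled Tgfbr2 counts were 23.2, 25.5 and 32.2 at day −2 and 43.1, 47.7 and 38.7 at day 1. This log2 fold change of 0.67 ± 0.49 was not called (adjusted p 0.276). These counts do not overlap, and the median entry moved by −1.23 in that comparison, but Tgfbr2 was not tested against it. Total Tgfbr2 rose over the same days. Its labelled share fell from 3.13% to 1.53%, near the 3.19% and 1.28% of these libraries as a whole. Labelled Smad3 and Tgfb2 passed the threshold at no day, with lowest adjusted p of 0.0981 and 0.0154.

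**Figure D2:**
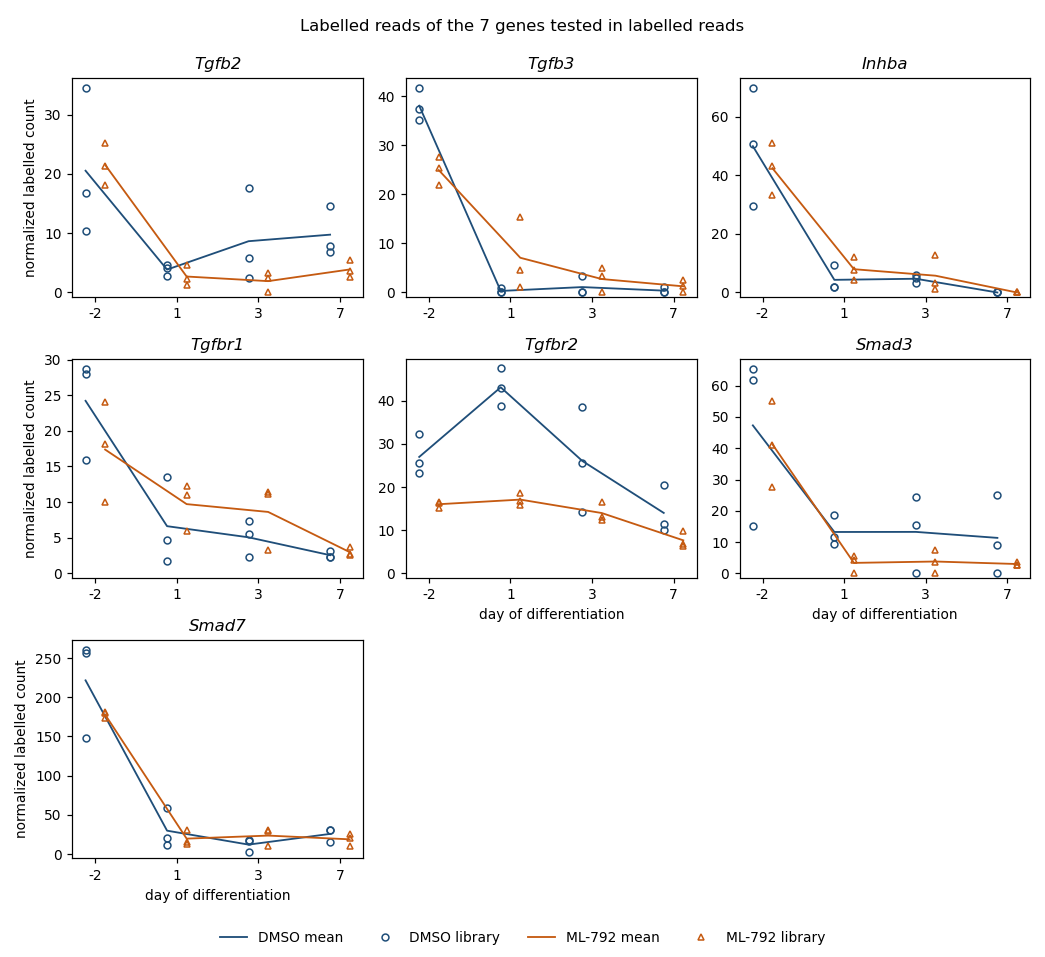
Normalized labelled counts (y axis, linear, its own scale for each gene) by day (x axis) for the 7 genes tested in labelled reads, with points for libraries of DMSO (blue circles) and ML-792 (orange triangles) and lines through the means of 3. Smad7, Inhba and Tgfb3 drop from day −2 to day 1 under both treatments, and the 3 Tgfbr2 libraries of DMSO lie above those of ML-792 on day 1.

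The share of a gene's reads that is labelled sets new against standing RNA, and Smad7 stood apart in it. Of 3110 Smad7 reads in the DMSO libraries of day −2, 25.3% were labelled (exact 95% binomial interval 23.8% to 26.8%), which was 7.91 times the 3.19% of these libraries as a whole. After induction Smad7 had 9.03% (day 1), 6.77% (day 3) and 11.6% (day 7) labelled, still 6.56 to 11.3 times the share of the libraries. Inhba followed with 8.17% at day −2 (7.05% to 9.40%), and it was 1.5% at day 1. Tgfb2, Tgfbr1, Tgfbr2, Smad3 and Tgfb3 lay between 2.30% and 4.84% at day −2.

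A low share need not mean old RNA. Of 546 Tgfb1 reads at day −2 in DMSO, 4 were labelled, 0.733% (0.200% to 1.87%), but its 135 base entry has 12 T bases, or 8.89%, while the entries of the other 8 genes have 19.9% to 34.5%. At day 7, 0 of 52 Inhba reads were labelled in DMSO, which allows a share of up to 6.85% by the exact interval. Intervals cover counting error only, since the reads carry no molecular identifiers.

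**Figure D3:**
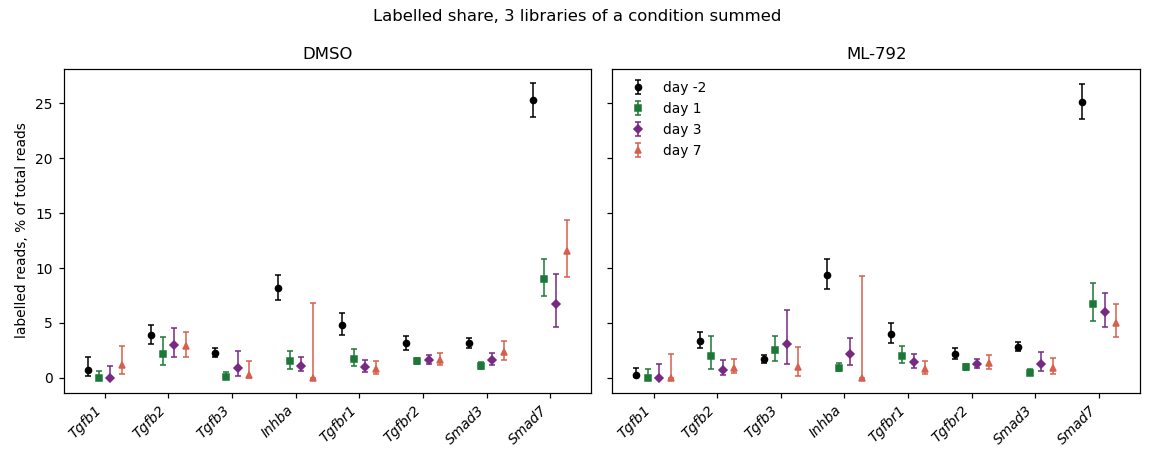
Labelled reads as a percentage of total reads (y axis) for 8 genes (x axis, Bmp4 left out for its few reads) with the 3 libraries of a condition summed, at days −2 (black), 1 (green), 3 (purple) and 7 (red) in DMSO (left) and ML-792 (right), with exact 95% binomial intervals. Smad7 has the highest share in each condition, 25.3% and 25.2% at day −2, and Inhba is next at day −2.

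Under ML-792, 6 of the 9 genes differed from DMSO at 1 or more days at an adjusted p under 0.1, against 21% of all entries tested. With 1 entry per gene the share was 27.4%, and the shares by day that follow count every entry. At day −2 none was called, with an adjusted p of 1 for all 9, 0 genes at an unadjusted p under 0.05, 0 by DESeq2, and 0% of all entries called. How long the day −2 cultures had been in ML-792 is not known, so a short exposure and no effect cannot be told apart. At day 1 there were 2 genes (background 6.45%), at day 3 there were 4 (13%) and at day 7 there were 2 (9.74%). Leaving out the 8 libraries of 1 replicate letter changes this most: without replicate A no gene was called (7.41% of entries), without C Inhba alone (8.85%), and without B there were 4, namely Inhba, Smad3, Smad7 and Tgfbr2 (26.1%). Cell type markers also differed between the treatments. The fibroblast sum was 76428 to 106262 in ML-792 and 132490 to 139349 in DMSO at day 1, and 30231 to 45936 against 18635 to 24911 at day 7. The adipocyte sum was 34924 to 40931 against 42158 to 44238 at day 1 and 779815 to 811625 against 567820 to 626508 at day 7. The leukocyte sum at day 1 was 59.7 to 68.5 against 36.9 to 44.0, and the muscle sum at day 7 was 102 to 227 against 312 to 544. None of these ranges overlap, while at days −2 and 3 the fibroblast and adipocyte sums did. The sums hide markers that went the other way. At day 1 Lpl averaged 30271 in ML-792 and 37437 in DMSO, but Fabp4 3717 and 1752. Col3a1 averaged 35895 and 62776, but Thy1 3968 and 2253. At day 7 Col3a1 averaged 31289 and 16998, while Dlk1, the only fibroblast marker to go the other way, averaged 1492 and 3098. Of the adipocyte markers only Cebpa had a lower mean in ML-792 at day 7 (6912 and 7730, with overlap). Lpl was about level there (327366 and 323802). At day 3 some markers did not overlap, such as Pdgfra (means of 2670 and 976) and Lpl (171449 and 231979), while Dlk1 and Fabp4 did. The part of the markers in the differences given here was not tested.

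Inhba was the gene with the largest called difference at day 1. Its ML-792 libraries held 787, 1242 and 611 normalized counts, all above the 281, 316 and 292 of DMSO. The log2 difference was 1.57 ± 0.38 (adjusted p 0.0143), and without replicate A it was not called (highest adjusted p with a replicate left out 0.263). Within ML-792 day 1 was above day −2 by 0.98 ± 0.37, which missed the threshold of 0.01 (adjusted p 0.0494), while in DMSO day 1 was at −1.05. By day 7 the treatments overlapped, with 11.1, 25.4 and 12.2 counts in ML-792. The interaction of day and treatment, tested as 3 terms in 1 model, was called for Inhba (adjusted p 0.0273) and for no other of the 9 genes. It was called for 9.65% of all entries and for 13.2% with 1 entry per gene. Next in order were Smad7 (adjusted p 0.146) and Tgfb1 (0.185). Without replicate A Inhba was no longer called in the interaction either, when 1.69% of entries were.

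Smad7 was higher in ML-792 at day 3. The libraries held 323, 440 and 400 normalized counts against 213, 236 and 96.0 in DMSO, with no overlap. The log2 difference was 1.09 ± 0.34 (adjusted p 0.041), and the call was lost without A or C. At day 7 the groups did not overlap either, with 323, 445 and 356 against 226, 249 and 198, but the difference of 0.74 ± 0.33 was not called (adjusted p 0.229). At day 1 they overlapped (236, 360 and 321 against 222, 576 and 202).

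Tgfbr2 was called lower in ML-792 at all 3 days after induction. At day −2 the libraries already did not overlap, with 744, 737 and 749 normalized counts in ML-792 against 763, 1017 and 805. That log2 difference of −0.21 ± 0.19 was not called. Labelled counts at day −2 were also lower without overlap (−0.75 ± 0.48, not called), where the median labelled entry was at −0.18. The interaction of day and treatment was not called for Tgfbr2 (edgeR adjusted p 0.793). At day 1 the libraries held 1715, 1882 and 1819 normalized counts, all below DMSO, and at day 3 they held 945, 1118 and 1309, again all below it. At day 7 they held 599, 532 and 591 and overlapped DMSO, whose replicate B was at 582. The log2 differences were −0.64 ± 0.19, −0.53 ± 0.19 and −0.58 ± 0.20 (adjusted p 0.0562, 0.0945 and 0.0788). Leaving out A or C lost the call on each day. New Tgfbr2 RNA pointed the same way at day 1, with labelled counts of 18.7, 16.7 and 15.9 against 43.1, 47.7 and 38.7. Its difference of −1.33 ± 0.48 was not called by edgeR (adjusted p 0.232). The median labelled entry was at −0.29 in that comparison, and Tgfbr2 was not tested against it.

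Smad3 was lower in ML-792 at day 3, with 398, 172 and 338 normalized counts against 1032, 387 and 998. Replicate B is the lowest in both treatments, so that the groups overlap through it although each letter is lower in ML-792. The log2 difference was −1.41 ± 0.51 (adjusted p 0.0913), and leaving out A or C lost it. Tgfb1 was lower at day 7, where the ML-792 libraries held 72.5, 73.6 and 66.5 normalized counts and the DMSO libraries 109, 143 and 129. The log2 difference was −0.84 ± 0.25 (adjusted p 0.044). The call needed all 3 letters, since leaving out any of them lost it.

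Bmp4 was called at day 3 from few reads. The ML-792 libraries had 0, 6.34 and 7.45 normalized counts, and the 3 DMSO libraries 0. This is at least 1.31-fold higher (adjusted p 0.0928), and the call was lost without any 1 of the 3 letters. Tgfb2, Tgfb3 and Tgfbr1 were called at no day. Their log2 differences lay between −0.59 and 0.40, the lowest for Tgfb3 at day 3 (adjusted p 0.151).

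**Figure D4:**
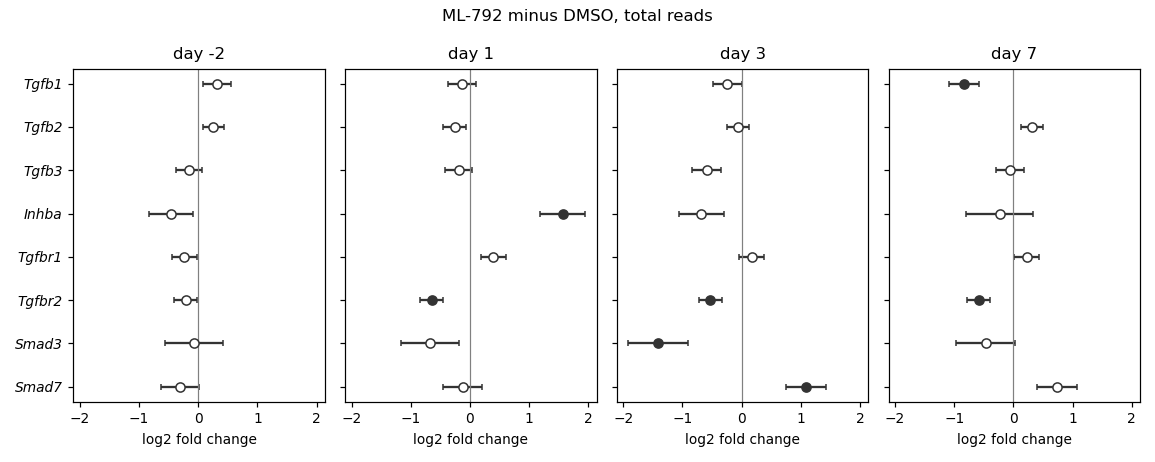
Log2 fold change of ML-792 against DMSO in total reads (x axis) with bars of 1 standard error for 8 genes (rows, Bmp4 left out) at days −2, 1, 3 and 7, filled where the edgeR adjusted p was under 0.1. No point is filled at day −2, Inhba at 1.57 stands out on day 1, and Smad7 (1.09) and Smad3 (−1.41) lie on opposite sides on day 3.

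Along the ML-792 course itself 7 genes were called against day −2, where 48.2% of entries were. With 1 entry per gene 8 were called, Bmp4 among them, where 58% of entries were. Tgfb1 was lower at day 7 by −1.44 ± 0.25 (adjusted p 3.88e-05), from 173, 217 and 190 normalized counts at day −2. Smad3 was lower at days 3 and 7 by −2.25 ± 0.52 and −2.10 ± 0.51. Smad7 was called only at day 1, at −1.21 ± 0.33 (adjusted p 0.00675), and was at −0.92 ± 0.33 at day 7 (adjusted p 0.0252). Bmp4, which had 24.2, 18.5 and 17.9 normalized counts at day −2 and 0 to 7.69 in each later library, was not called in the main fit (lowest adjusted p 0.0151). Calls here and in DMSO come from separate fits, and a call in one alone is no test of a difference between them.

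In labelled reads none of the 7 genes was called between ML-792 and DMSO, where 2.29% of entries were. At an unadjusted p under 0.05 edgeR had 0, 2, 1 and 0 of the 7 at days −2, 1, 3 and 7, and DESeq2 called 1, Tgfbr2 at day 1 (adjusted p 0.0566). Tgfb3 came closest in edgeR at day 1 with labelled counts of 15.4, 1.19 and 4.69 against 0.936, 0 and 0 (adjusted p 0.107). In the ML-792 course 6 of the 7 were called lower, against 46.4% of entries, and Tgfbr2 was not. Without replicate A there were 2 (19.3% of entries) and without C there were 3 (26.7%). Neither edgeR nor DESeq2 called an interaction for any of the 7 in labelled reads (0.236% of entries), and 1, Tgfb3, had an unadjusted p under 0.05 (0.00996). The labelled share of Smad7 in ML-792 was 25.2% at day −2 and 6.75%, 6.0% and 5.02% at days 1, 3 and 7. At day 7 its exact 95% interval, 3.67% to 6.68%, lay below that of DMSO, 9.14% to 14.4%, with 13.4%, 12.6% and 8.05% in the 3 DMSO libraries and 3.42%, 5.70% and 5.73% in those of ML-792. These intervals sum the reads of 3 libraries and leave out the spread between cultures, and the difference in share was not tested. The share of all reads was 0.838% in ML-792 and 1.02% in DMSO. Labelled Smad7 counts at day 7 were not called (log2 difference −0.45 ± 0.50, edgeR adjusted p 0.771), and the median labelled entry was at −0.36 there.

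The wider pathway went down with these genes over differentiation. In 9 lists of 83 other pathway genes 70 were tested, and in DMSO 18 were lower and 6 higher at day 1, 41 and 3 at day 3, and 40 and 5 at day 7. Of all entries 7.81% were lower at day 1, 16.3% at day 3 and 16.9% at day 7, and 5.94%, 14.5% and 15.9% were higher. These shares count every entry of a gene, while each list gene has 1 entry. Without replicate A the lower genes numbered 11, 32 and 29, and without C 12, 34 and 32. The higher genes numbered 2, 1 and 1 without A and 2, 2 and 2 without C. The lists were drawn up with results of these data known, so the counts describe them and do not test them.

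All 13 TGF-beta target genes were lower at days 3 and 7, and 6 of them at day 1. Their median log2 fold change was −0.94, −3.23 and −3.24. Ctgf, a matrix signaling protein, averaged 2936 ± 632 normalized counts before induction and only 11.3 ± 2.85 by day 3 (SD, n = 3; log2 fold change −8.01 ± 0.49, adjusted p 5.03e-09). The smooth muscle actin gene Acta2 went from 49777 to 393 over the same days, and Tagln, a partner of actin, was lower by −5.41 ± 0.52 at day 7. Several of these genes also mark fibroblasts, whose marker sum fell in the same libraries as given above, and its part in this result was not tested. Of the 6 BMP targets 4 were lower at day 3 and 5 at day 7. Without replicate A there were 2 at both days, and without C 2 and 3. Atoh8, a helix-loop-helix factor, was the 1 target higher at day 1 (1.47 ± 0.29, adjusted p 0.00183), and Id4 and Id2, inhibitors of such factors, were lower at day 7 by −4.10 ± 0.44 and −3.12 ± 0.26. The call of Atoh8 was lost without replicate C (adjusted p 0.0286).

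Among genes that store and release latent TGF-beta, 5, 7 and 7 of the 9 tested were lower. Thbs1, which activates latent TGF-beta, changed by −5.54 ± 0.28 at day 7, and Ltbp1, which anchors it in the matrix, by −3.54 ± 0.24. Of 9 intracellular brakes 5 were lower at each day, led by the repressor Tgif2 at −3.49 ± 0.34 and by Pmepa1 at −3.20 ± 0.19 (day 7), and 2 were higher at days 3 and 7. Without A the lower brakes were 1, 3 and 4 and no brake was higher, and without C 2, 4 and 5 were lower and 0, 1 and 1 higher. Of 11 antagonists 1, 4 and 4 were lower and 3, 0 and 1 higher. Without A or C 1, 3 and 2 were lower, and the 3 higher at day 1 became 0 without A, 5 without B and 1 without C. The BMP antagonist Grem1 changed by −7.00 ± 0.41 at day 7 and the activin antagonist Fst by −2.80 ± 0.33. The other receptors had 4 and 3 of 9 lower at days 3 and 7, with the type I receptor Acvr1 at −2.40 ± 0.27. The other SMADs had 3 and 2 of 6 lower (1 and 0 without A, 2 and 0 without C), with the second inhibitory SMAD, Smad6, at −1.96 ± 0.35 at day 3, a call lost without A or C (adjusted p 0.0157 and 0.011). Ligands were few: Gdf11 was lower by −5.59 ± 0.93 at day 7, and Gdf5 was at least 50.0-fold higher than at day −2.

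With ML-792 the pathway genes moved both ways. At day 1 there were 7 higher and 8 lower of 70, at day 3 there were 15 and 6, and at day 7 there were 11 and 6. For all entries the shares were 3.14% and 3.31% at day 1, 6.57% and 6.46% at day 3, and 5.27% and 4.47% at day 7. These shares too count every entry of a gene. Without replicate A the counts were 3 and 3, 6 and 4, and 4 and 4, and without C 5 and 3, 6 and 4, and 3 and 4. Without B they were 14 and 8, 20 and 7, and 15 and 6. The marker sums above differ between the treatments at days 1 and 7 in the same libraries, and single markers also at day 3. Their part in these counts was not tested.

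The secreted BMP antagonist Grem1 held a mean of 93.4 ± 31.2 normalized counts in ML-792 at day 3 and 8.48 ± 1.33 in DMSO (3.43 ± 0.43, adjusted p 5.35e-06). At day 1, 4 of the 6 BMP targets were lower in ML-792, with a list median of −0.89, among them Id3 (−0.99 ± 0.24, adjusted p 0.0129) and Id4 (−1.12 ± 0.33, adjusted p 0.0539). Without replicate A or C 1 of the 6 was lower at that day. Inhbb, another activin subunit gene, was higher at day 1 as Inhba was (1.89 ± 0.41, adjusted p 0.00567). The calls of Id3, Id4 and Inhbb were each lost without A or C (adjusted p from 0.143 to 0.299). Among TGF-beta targets 1, 4 and 5 of 13 were higher at days 1, 3 and 7 and 1, 1 and 2 lower. The higher ones numbered 1, 3 and 1 without replicate A, 5, 5 and 5 without B and 1, 2 and 0 without C, and the lower ones 0, 0 and 1 without A or C. Klf10, a repressor that TGF-beta induces early, was higher at day 1 (1.31 ± 0.22), and Tgfbi was lower at day 7 (−1.48 ± 0.32). Pmepa1, which binds SMADs, was lower at day 7 (−1.66 ± 0.16, adjusted p 1.54e-07).

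**Figure D5:**
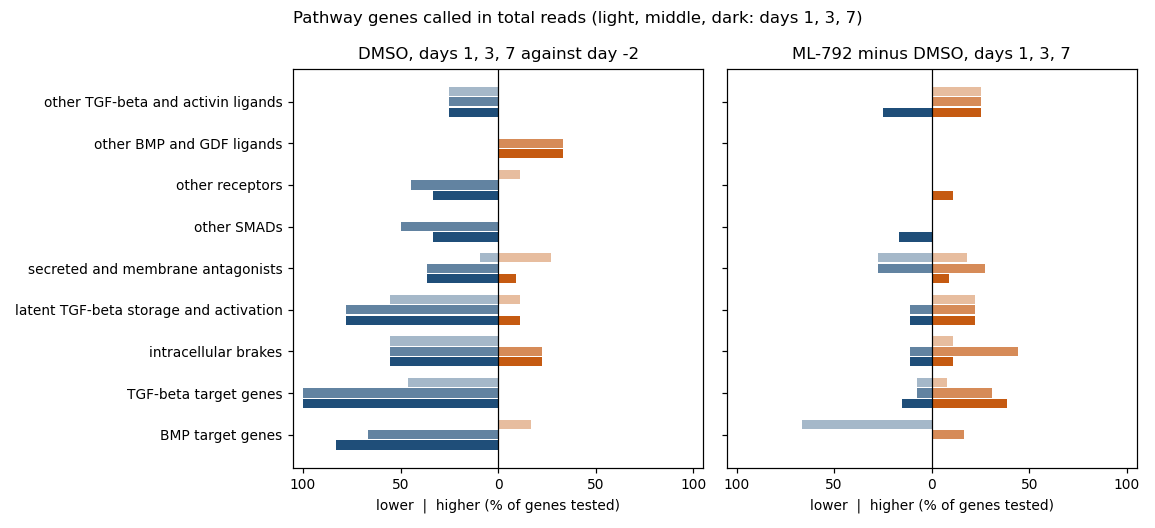
Share of the tested genes of 9 pathway lists that were called lower (blue, to the left) or higher (orange, to the right) in total reads, in percent (x axis), at days 1, 3 and 7 (light, middle and dark bars), for DMSO against day −2 (left) and for ML-792 against DMSO (right). All 13 TGF-beta targets are lower at days 3 and 7 in DMSO, and 4 of 6 BMP targets are lower in ML-792 at day 1.

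Across the 24 libraries the gene most like each of the 9 was sought among 13331 genes by Pearson's r of log2 normalized total counts. For Tgfb3 it was Gpc4 (r = 0.98), for Tgfb2 Mylk (0.94), for Inhba Chaf1b (0.93), for Tgfbr2 Pde4d (0.93), for Smad3 Klc1 (0.96) and for Smad7 Aldh3a2 (0.91). Tgfbr1 had the weakest match, Cacybp at 0.81, and Tgfb1 had Dgkz at 0.86. Among the 9 genes themselves the highest value was that of Tgfb3 and Smad3 (0.77). The 24 points share 8 conditions and the same libraries, so these values only describe likeness of course.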

How the data were processed

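Each of the 24 libraries of 3T3-L1 cells gave both a QuantSeq (all reads) and a SLAMseq (labelled reads) measurement. The authors converted reads with bcl2fastq 2.17.1.14, mapped them with SlamDunk (build mm10) and counted reads over RefSeq 3′UTR entries. The values used are the raw read counts deposited by the authors, without normalization, of all reads and of reads with at least 1 T to C change. Libraries were grouped by title. Each table has 6 library columns that match no sample used here, which were left out.

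Entries were kept by filterByExpr (minimum count 10, minimum total 15). Tests used edgeR 4.0.16 (TMM, robust quasi-likelihood) in R 4.3.3, with Benjamini-Hochberg adjustment over all entries tested. For labelled counts the effective library sizes of the total reads were used, as the study did with its size factors. Days were compared in the 12 DMSO libraries at an adjusted p under 0.01, and treatments in all 24 libraries at 0.1. Alternatives were DESeq2 1.42.0, no filter, one entry per gene, the longest entry, another scaling, other sets of libraries, a replicate block and leaving out each letter. Tests were checked on simulated counts drawn independently for each library, with changes planted in well counted entries only. That check therefore does not cover low counts or effects shared by a replicate letter.

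Named genes are the 9, up to 3 per pathway list with the largest called change in DMSO, up to 2 for ML-792, and the most like gene of each. One gene that this rule names is not reported here. Members and lists were chosen with earlier results of these data known. Bounds use a floor of 3 reads a library.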

Additional observations from a re-analysis of the deposited data

Results flagged for a closer look

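For Inhba the effect of ML-792 differed between days by the interaction test in total reads (edgeR adjusted p 0.0273). Inhba was higher at day 1 by 1.57 on the log2 scale. It was at −0.46 at day −2 and at −0.68 at day 3, both not called and with libraries that overlapped. The same test called 24 of the 70 other pathway genes tested, against 9.65% of all entries and 13.2% with 1 entry per gene. Of the 24, 12 are given here. Of these 12 the secreted antagonists were Grem1 (adjusted p 0.000121) and Chrdl1 (0.0063). Among the latent TGF-beta genes they were Itgb5 (0.00752), Ltbp1 (0.01997) and Thbs1 (0.0287), and among the brakes and ligands Pmepa1 (1.01e-05) and Gdf15 (0.0131). The TGF-beta targets were Klf10 (0.00432) and Tgfbi (0.00741), and the BMP targets Id4 (0.0287), Atoh8 (0.0341) and Id2 (0.039998). These genes were named for their calls in the same libraries, so the p-values describe them.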

How the results depend on the processing

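Counts of called genes are out of 9 in total reads and 7 in labelled reads. Percentages in brackets are the shares of all entries called under the same setting. Leaving out each replicate in turn gave, in total reads, 3 to 7 for the DMSO course (21.4% to 46.1%). It gave 0 to 4 for ML-792 against DMSO (7.41% to 26.1%), 0 to 2 for the interaction (1.69% to 12.8%) and 5 to 7 for the ML-792 course (26.2% to 51.3%). In labelled reads it gave 3 to 5 for the DMSO course (16.7% to 41.8%). It gave 0 for ML-792 against DMSO (0.595% to 2.24%) and for the interaction (0.0661% to 0.349%). For the ML-792 course, which had 6, it gave 2 to 4 (19.3% to 38.3%). With the 6 libraries of a day alone 3 of 6 calls for ML-792 were kept (Inhba, Smad3 and Smad7, 14.9% against 21% in the main fit). The interaction, with 1 gene (9.65%), had 2 by DESeq2 (14.3%) and 3 with no filter on low counts (4.93%). With the replicate letter as a block it had 4 (Inhba, Smad3, Smad7 and Tgfb1, 20.6%). ML-792 against DMSO then had 7 in total reads (35.6%) and 1 in labelled reads (Tgfb3, 5.44%), and the DMSO course kept the same 7 (52.9%). The labels do not say that a letter marks a shared batch. In total reads the deviations of same-letter libraries from their group means correlated at 0.191 on average, over 0.1 in 68 of 84 pairs but as low as −0.180. For different letters the mean was −0.094. Deviations from a mean of 3 sum to 0, so this value largely follows from the first and is no separate comparison. Of 24 libraries 23 correlated best with their own letter. This is a hint of pairing from the data, not the design, so the block is given here alone. For labelled ML-792 against DMSO, DESeq2 called 1 (Tgfbr2, 5.19%). One entry per gene (3.09%) and scaling by labelled reads (2.29%) called 1 each, Tgfb3 in both. That scaling also left 2 of 6 genes in the labelled ML-792 course (17%), where it removes the general loss of labelling. Counts in the pathway lists under the same settings, added after seeing the data, stayed within 1.5 times the main count in 810 of 960 cases. The 810 include counts that were 0 in the main fit and stayed 0. Of the 150 cases that moved, 38 came from leaving out A and 34 from leaving out C. Of 304 values of named pathway genes 277 kept their call and direction.

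Signs changed in 31 cases, all of them differences that passed no threshold before or after. In total reads Tgfbr2 at day 7 in DMSO was at 0.0079 by DESeq2, 0.021 with the block and −0.20 to 0.35 when 1 letter was left out. For ML-792 against DMSO, leaving out 1 letter gave −0.22 to 0.19 for Smad3 at day −2. At day 1 it gave −0.21 to 0.0028 for Tgfb1, −0.40 to 0.11 for Tgfb3 and −0.42 to 0.40 for Smad7, and at day 3 −0.13 to 0.015 for Tgfb2 and −0.043 to 0.31 for Tgfbr1. At day 7 it gave −0.16 to 0.094 for Tgfb3, −0.88 to 0.26 for Inhba and −2.41 to 4.49 for Bmp4. In labelled reads the ranges were −0.54 to 0.22 for Tgfbr2 in DMSO at day 3. With ML-792 set against DMSO they were −0.38 to 0.77 for Tgfb2 and −0.40 to 0.10 for Smad3 at day −2, −0.097 to 1.85 for Tgfbr1 and −1.28 to 0.56 for Smad7 at day 1, −0.79 to 0.76 for Inhba at day 3 and −0.044 to 0.49 for Tgfbr1 at day 7. Scaled by labelled reads, Tgfbr2 in DMSO was at 1.11 and 0.15 at days 3 and 7, Tgfb2 at 0.12 at day 7, and Smad3 for ML-792 at day −2 at 0.0094. The ML-792 course with that scaling had Tgfbr1 at 0.19 and 0.024 at days 1 and 3 and Tgfbr2 at 0.85 and 0.15 at days 3 and 7. The block gave 0.051 for labelled Smad3 at day −2 and 0.012 for labelled Inhba at day 7. The causes were not tested. Tgfb1 and Bmp4 had too few labelled reads to be tested in them.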
